A study of Mus musculus with 49 samples.

Results

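Mouse embryonic stem (ES) cells grown in serum and in 2i medium were compared by single-cell Hi-C, a method that ligates and sequences pairs of DNA segments lying close together in 1 nucleus. The cells were those that passed the authors' quality control under the condition name 1CDS1 in the serum table of the diploid line (428 cells) and under 1CDU in the 2i table (401 cells), together 829 of the 4098 passing cells of the series. The pair was chosen because a like share of its cells lay in early S, so the early-S share is a description and was not tested.

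All cells came from the same diploid F1 hybrid line, a cross of 129/SV-Jae with castaneus mice, and were fixed with formaldehyde. The 2i cells grew in 2i medium with no feeder cells. The serum cells grew in ES-DMEM with fetal bovine serum on feeder cells, and per the labels' protocols cultures on feeders were depleted of them and sorted for Oct-3/4 before Hi-C. Medium, feeders and this sort therefore cannot be told apart here. The labels give the media only for the study as a whole and do not define the names 1CDS1 and 1CDU, so the medium of each cell was taken from its table. Cell identity was not checked here against markers, because the tables hold no values per gene. By the title of the series, the study asks how chromosome organisation changes over the cell cycle.

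In interphase, contacts along a chromosome become rarer with distance, and active and inactive segments gather in separate compartments. At mitosis chromosomes condense and contacts pile up at the intermediate distances of the rod, and after division short-range contacts are rebuilt through G1 and S. The 2i inhibitors block differentiation signals and hold ES cells in a more uniform naive state, whereas serum cultures are known to be more mixed.

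The serum cells came from 5 libraries, diploid 1_6 (11 cells), 2_14 (64), 3 (154), 4 (151) and 5_10 (48). The 2i cells came from 4, diploid 11 (77 cells), 12 (122), 13 (134) and 2_14 (68). Diploid 2_14 held both media and is the only library in which they shared a sequencing lane. Its serum and 2i cells were separate batches. Among the 1159 cells listed for these libraries, 0 pairs of index barcodes were listed more than once within a lane. The median number of contacts was 227034 per serum cell, with 122028 and 352604 at the 25th and 75th percentiles. It was 121909 per 2i cell, with 81746 and 176948. The passing cells of a library summed to 1407789 to 45765978 contacts in serum and to 8296410 to 19198697 in 2i. Of the listed cells, 72.9% passed quality control in serum and 70.1% in 2i, and the difference between libraries was small against their spread (75.1% ± 18.4 (SD, n = 5) against 72.0% ± 8.46 (n = 4), exact p = 0.757).

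The values below are means over the cells of a cell-cycle group within a library, given for libraries with at least 10 such cells, and then the mean and SD over libraries. Tests were two-sided exact permutations of library labels, in which the serum and 2i values of diploid 2_14 were swapped as a pair. Within G1 or early S, with all libraries of at least 10 cells, the smallest p such a test could give was 0.05, so none of these comparisons could fall below that value. Since no label ties a library to a culture of its own, these p-values measure only how much the libraries differ, which may be technical.

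Far contacts spanned shorter distances in serum cells. The authors' tables give each cell a mean distance of its far contacts along the chromosome, whose lower limit is not stated in the sources used here. In early-S cells this distance was 25.2 Mb in diploid 2_14, 24.8 Mb in 3, 24.99 Mb in 4 and 24.8 Mb in 5_10 in serum. In 2i it was 30.6 Mb in diploid 11, 29.6 Mb in 12, 29.8 Mb in 13 and 30.0 Mb in 2_14. The serum libraries lay close together, and each lay below every 2i library. The means were 24.96 Mb ± 0.178 (SD, n = 4) and 30.0 Mb ± 0.425 (n = 4), a difference of -5.04 Mb (exact p = 0.05, Benjamini-Hochberg adjusted p = 0.0778 over 14 comparisons). The distance in 2i was thus 1.20 times that in serum. Leaving out any 1 library kept this early-S difference between -5.18 and -4.85 Mb.

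Single cells of the 2 media overlapped in this distance, though in early S few crossed the median of the other medium. The 5th to 95th percentiles in early S were 21.5 to 28.6 Mb in serum and 24.6 to 35.6 Mb in 2i. The median early-S cell lay at 24.8 Mb in serum (25th to 75th percentile 23.4 to 26.5) and at 29.8 Mb in 2i (27.5 to 32.1). Of 265 serum cells, 7 (2.64%) exceeded the 2i median, and of 261 2i cells, 18 (6.90%) lay below the serum median. In G1 a larger share did, with 11 of 81 serum cells (13.6%) above the 2i median and 20 of 116 2i cells (17.2%) below the serum median.

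G1 cells differed in the same direction. Far contacts in G1 averaged 24.3 Mb in diploid 2_14, 22.1 Mb in 3 and 21.5 Mb in 4 in serum. In 2i they averaged 26.2 Mb in diploid 11, 26.2 Mb in 12, 27.7 Mb in 13 and 28.8 Mb in 2_14. Diploid 2_14 was the highest library in both media, and the media did not overlap. The group means were 22.6 Mb ± 1.50 (SD, n = 3) and 27.2 Mb ± 1.28 (n = 4), a difference of -4.58 Mb (exact p = 0.05, adjusted p = 0.0778). In late-S/G2 the serum libraries averaged 24.5 Mb ± 0.214 (n = 4), between 24.3 and 24.8 Mb, and the only 2i library with 10 such cells, diploid 11, averaged 26.98 Mb, which allows no test.

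**Figure D1:**
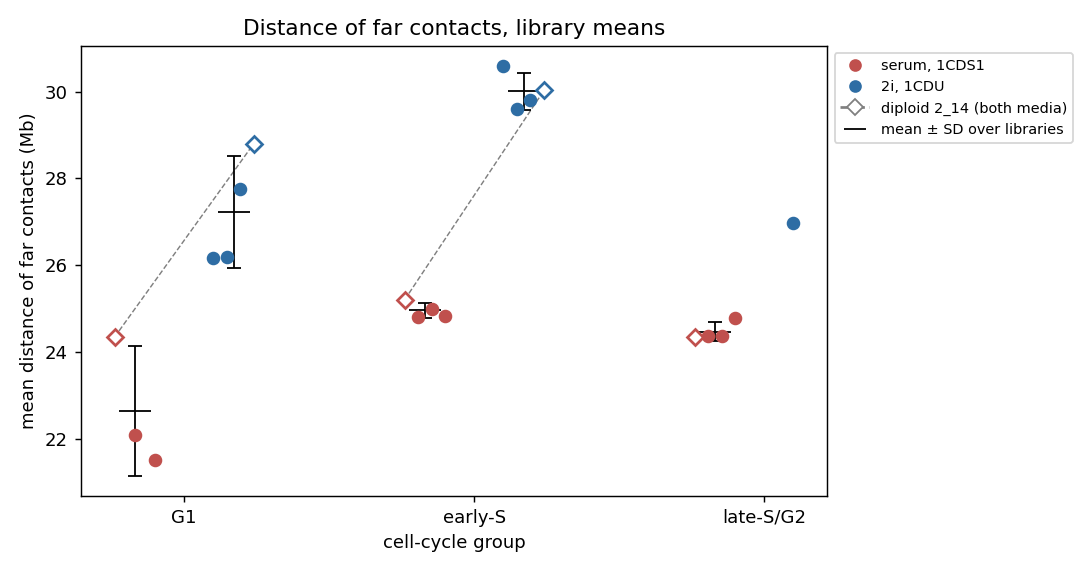
Mean distance of far contacts (Mb) by cell-cycle group, 1 point per library with at least 10 cells, with the mean and SD over libraries; open diamonds joined by a dashed line are diploid 2_14, which held both media. In G1 and early S each serum library lies below each 2i library, with a difference of -5.04 Mb between the early-S means.

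The library with both media gave a difference of like size within 1 sequencing lane. In diploid 2_14, far contacts of early-S cells averaged 25.2 Mb in 41 serum cells (SD over cells 2.07) and 30.0 Mb in 45 2i cells (SD 3.16), a difference of -4.82 Mb, beside -5.11 Mb in the other libraries. In G1 the difference was -4.46 Mb within diploid 2_14, from 13 serum and 21 2i cells, and -4.91 Mb in the others. Late-S/G2 cells of this library averaged 24.3 Mb in serum (10 cells) and 28.5 Mb in 2i (2 cells). These are values of 1 library, with no test, and its serum and 2i cells were separate batches that shared the lane.

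The short-range share differed in opposite directions in G1 and early S. This is the percentage of a cell's contacts in a near band of distances, with limits that are not stated, and the authors' cell-cycle groups largely separate on it. In G1 the share was 53.7% in diploid 2_14, 54.1% in 3 and 52.9% in 4 in serum, and 57.9% in diploid 11, 57.0% in 12, 57.5% in 13 and 58.8% in 2_14 in 2i. Every serum library lay below every 2i library, with means of 53.6% ± 0.586 (SD, n = 3) and 57.8% ± 0.770 (n = 4), a difference of -4.25 points (exact p = 0.05, adjusted p = 0.0778).

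In early S the order turned. The share was 72.4% in diploid 2_14, 72.9% in 3, 72.4% in 4 and 72.9% in 5_10 in serum, and 70.2% in diploid 11, 69.5% in 12, 69.8% in 13 and 70.0% in 2_14 in 2i. All serum libraries now lay above all 2i libraries, with means of 72.7% ± 0.292 (SD, n = 4) and 69.9% ± 0.323 (n = 4), a difference of 2.78 points (exact p = 0.05, adjusted p = 0.0778). Diploid 2_14 alone showed both signs, -5.11 points in G1 and 2.42 in early S. Averaged over G1 and early S the differences nearly cancel, at -0.735 points (exact p = 0.35). In late-S/G2 the share was 80.4% ± 0.135 (n = 4) in serum and 80.4% in the 1 2i library.

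In this pair, serum libraries gained more short-range contacts between G1 and early S. The gain was 18.7 points in diploid 2_14, 18.9 in 3 and 19.5 in 4 in serum, against 12.3 in diploid 11, 12.5 in 12, 12.3 in 13 and 11.2 in 2_14 in 2i. The 2 sets did not overlap, and within diploid 2_14 the gain was larger on the serum side too. The mean gains were 19.01 ± 0.404 (SD, n = 3) and 12.1 ± 0.599 (n = 4) points, a difference of 6.95 points (exact p = 0.05, adjusted p = 0.0875 over 7 features), between 6.72 and 7.08 when any 1 library was left out. The authors' groups largely separate on this share, and how they were set is not given in the sources used here, so the gain is not shown to be independent of the grouping. Over all passing cells of each table, G1 cells reached up to 63.9% in serum and 65.3% in 2i, and early-S cells started at 62.2% in both.

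The mitotic-band share, that of contacts in a band that the authors named for the distances of condensed chromosomes, was higher in serum G1 cells. It averaged 17.97% ± 0.684 (SD, n = 3) in serum, from 17.3% to 18.7%, and 15.6% ± 0.7099 (n = 4) in 2i, from 14.6% to 16.3%, with no overlap. The difference was 2.38 points (exact p = 0.05, adjusted p = 0.0778). With the median over the cells of a library in place of the mean, it was smaller, at 1.37 points. In early S the libraries overlapped, at 11.7% ± 0.124 (n = 4) and 11.9% ± 0.265 (n = 4), a difference of -0.204 points (exact p = 0.25). The fall from G1 to early S was accordingly -6.27 ± 0.601 points in serum and -3.71 ± 0.643 in 2i, a difference of -2.56 points (exact p = 0.05, adjusted p = 0.0875).

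**Figure D2:**
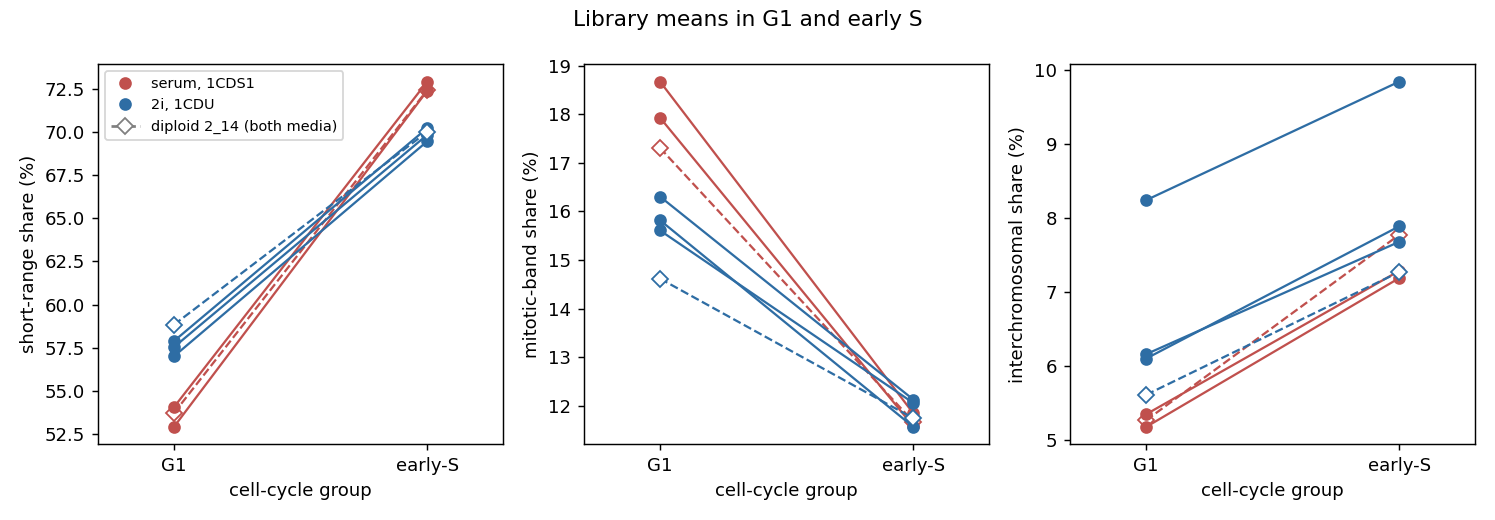
Short-range, mitotic-band and interchromosomal shares (%) in G1 and early S, 1 line per library with at least 10 cells in both groups. Dashed lines with open diamonds are the serum and 2i sides of diploid 2_14. The serum lines for the short-range share cross the 2i lines, rising by 19.01 points on average against 12.1, and diploid 11 stands above the other 2i libraries in the interchromosomal share.

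Contacts between chromosomes did not differ as evenly. In G1 their share was 5.26% ± 0.0855 (SD, n = 3) in serum and 6.52% ± 1.17 (n = 4) in 2i, with no overlap and a difference of -1.26 points (exact p = 0.05, adjusted p = 0.0778). The 2i mean rested in large part on diploid 11 at 8.24%, and without it the G1 difference was -0.693 points. In early S the share was 7.37% ± 0.268 (n = 4) and 8.17% ± 1.14 (n = 4), the libraries overlapped, and the difference of -0.793 points (exact p = 0.25) was -0.236 without diploid 11. Within diploid 2_14 the early-S share was higher in serum, at 7.77% against 7.27%, opposite in direction to the other libraries (-1.23 points).

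The share nevertheless rose from G1 to early S in all 7 sets of cells with both groups. It rose by 2.15 ± 0.310 points (n = 3) in serum and by 1.64 ± 0.113 (n = 4) in 2i, without overlap. The difference of 0.511 points had an exact p of 0.05 (adjusted p = 0.0875), and it was 0.339 points without diploid 2_14, whose serum side had the largest rise, 2.51 points.

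Of the 14 comparisons of a feature within G1 or early S, 9 (64.3%) had library means that did not overlap between the media. They were the 5 in G1 of the short-range, mitotic-band and interchromosomal shares, far distance and contacts per cell, and the 4 in early S of short-range share, far distance, contacts per cell and duplicated share. With this many of all comparisons separated, separation alone marks no feature out. By the exact permutation test 0 of 14 (0.0%) had an adjusted p under 0.05, and 0 had an unadjusted p under 0.05, which the test could not reach. When batches were taken as units, so that the serum and 2i sides of diploid 2_14 counted separately, 8 of 14 (57.1%) had an unadjusted exact p under 0.05, each at 0.0286, the smallest possible, and 0 (0.0%) had an adjusted p under 0.05.

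Depth moved with the medium in the libraries that met the cell minimum. Serum cells held 229820 ± 62984 contacts in G1 (SD, n = 3) and 255811 ± 51719 in early S (n = 4). 2i cells held 117770 ± 27543 and 140307 ± 24451 (n = 4 each). The ratio was 1.95 in G1 and 1.82 in early S, without overlap in either (exact p = 0.05, adjusted p = 0.0778 each). It was 1.94 in the early-S cells of diploid 2_14, so depth differed between the media within 1 lane too. Serum diploid 1_6, with 7 early-S cells, fell under the cell minimum. These cells averaged 103776 contacts, below every 2i library, the lowest being 108673. With a minimum of 5 cells, which adds this library, the early-S difference was 85096 contacts (exact p = 0.143, smallest possible 0.0143). Over all cells the media overlapped, at 127981 to 297182 contacts in serum libraries and 107746 to 157366 in 2i (exact p = 0.114).

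Among early-S cells between 92167 and 267583 contacts, the 25th to 75th percentile of both media together, far contacts were again shorter in serum (difference -5.08 Mb, exact p = 0.0286, adjusted p = 0.1). The serum side of diploid 2_14 had only 9 cells in this window and dropped out, so the test lost its pair of sides, and 0.0286 is the smallest p it could then give. The short-range share in these cells was 2.56 points higher in serum. Serum cells in this window still held 23838 more contacts. G1 had too few serum libraries with 10 cells in the window for a test. Within early-S libraries, contacts per cell and far distance had a Spearman's rho from -0.177 to 0.125 (median 0.0136) in the 4 serum libraries and from -0.216 to 0.180 (median -0.0799) in the 4 2i libraries with at least 20 such cells, a description over cells that share a library.

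The other library measures moved less evenly. The share without digestion was 31.1% ± 1.39 (SD, n = 3) in serum and 35.7% ± 6.66 (n = 4) in 2i in G1 (exact p = 0.3), and 30.7% ± 1.95 (n = 4) and 36.3% ± 6.43 (n = 4) in early S (exact p = 0.2). Diploid 11 stood apart, at 25.7% in G1 and 27.4% in early S, below the other 2i libraries. The early-S difference was -5.63 points, and it was -8.61 without diploid 11 and -2.68 without diploid 2_14. Within diploid 2_14 it was -14.5 points. Across early-S cells this share and far distance had a rho from -0.380 to 0.177 (median -0.107) in serum and from -0.122 to 0.251 (median -0.00948) in 2i libraries. The lowest value was that of the serum side of diploid 2_14.

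The duplicated share, the part of fragment ends seen more than once, was 2.82% ± 0.180 in serum and 2.18% ± 0.269 in 2i in early S (n = 4 each, exact p = 0.05, adjusted p = 0.0778). The difference was 0.639 points. It was 1.12 points with a minimum of 5 cells, which adds diploid 1_6 at 5.25%, and -0.0157 points within the depth window. The part of these measures in the differences of folding was not tested beyond these values.

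**Figure D3:**
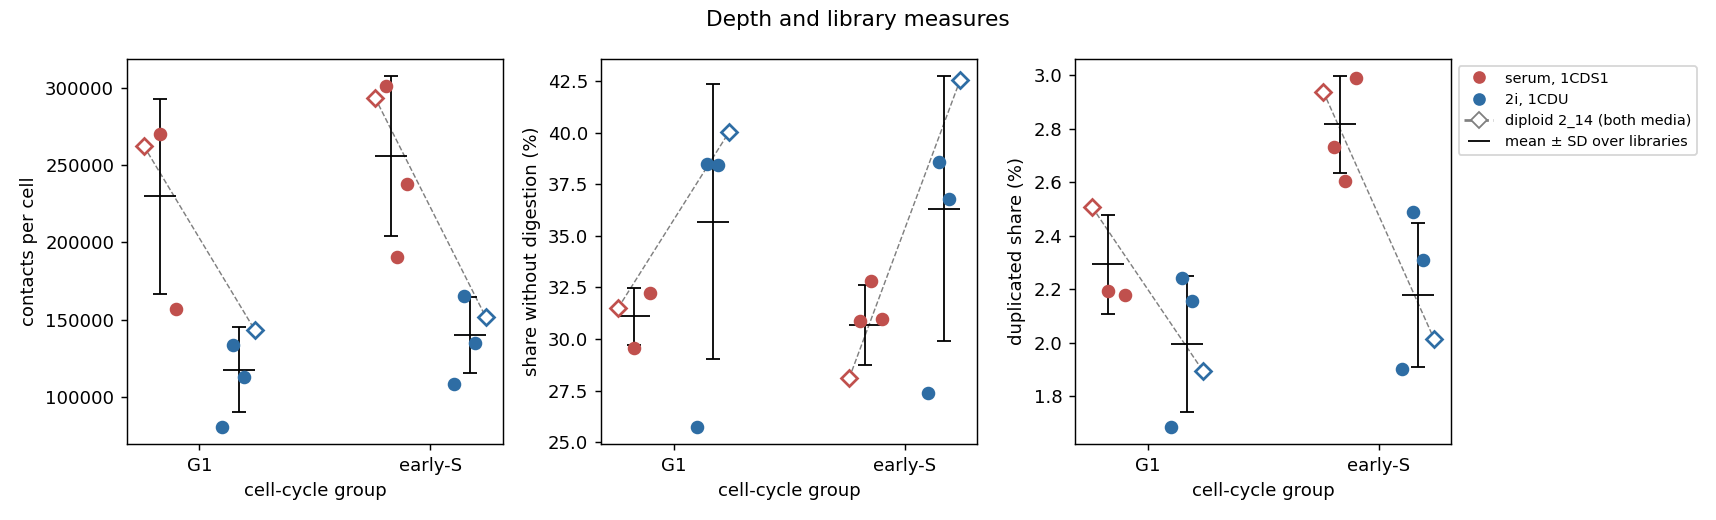
Contacts per cell, share without digestion (%) and duplicated share (%) in G1 and early S, 1 point per library with at least 10 cells, with the mean and SD over libraries; open diamonds joined by a dashed line are diploid 2_14. Serum libraries held more contacts per cell, 255811 against 140307 on average in early S, and diploid 11 lies below the other 2i libraries in the share without digestion.

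The shorter far distance in serum also held between cells of like short-range share, which were largely the early-S cells compared above. In place of the authors' groups, cells were matched in bins of 5 points of that share, with at least 5 cells per library and bin and 4 libraries per medium. The bins that met this ran from 65% to 80%. G1 cells of the pair reached at most 63.9%, and late-S/G2 cells started at 76.9%. The bins thus held no G1 cells, and below 75% only early-S cells, so they are not an independent set of cells. Between 65% and 70% far contacts averaged 25.9 Mb ± 0.713 in serum and 30.4 Mb ± 0.427 in 2i (SD, n = 4 each). Between 70% and 75% they averaged 24.7 Mb ± 0.380 and 29.6 Mb ± 0.785, and between 75% and 80% 24.7 Mb ± 0.194 and 28.5 Mb ± 0.612. The media overlapped in none of these 3 bins, and the average difference was -4.38 Mb (exact p = 0.05). In both media cells with more short-range contacts had somewhat shorter far contacts, with a median rho of -0.252 in serum and -0.226 in 2i early-S libraries.

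Interchromosomal shares in the same bins overlapped between the media, at 7.75% and 8.28%, 7.41% and 8.56%, and 6.93% and 7.95% in serum and 2i (average difference -0.902 points, exact p = 0.1). Within early-S libraries this share went with the short-range share in different directions. Spearman's rho was between -0.496 and -0.0797 in the 4 serum libraries and between 0.0188 and 0.184 in the 4 2i libraries. The lowest serum value was that of diploid 5_10, with 28 cells, and the other serum libraries lay between -0.192 and -0.0797. These are relations over cells of 1 library each, and their difference between the media was not tested.

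**Figure D4:**
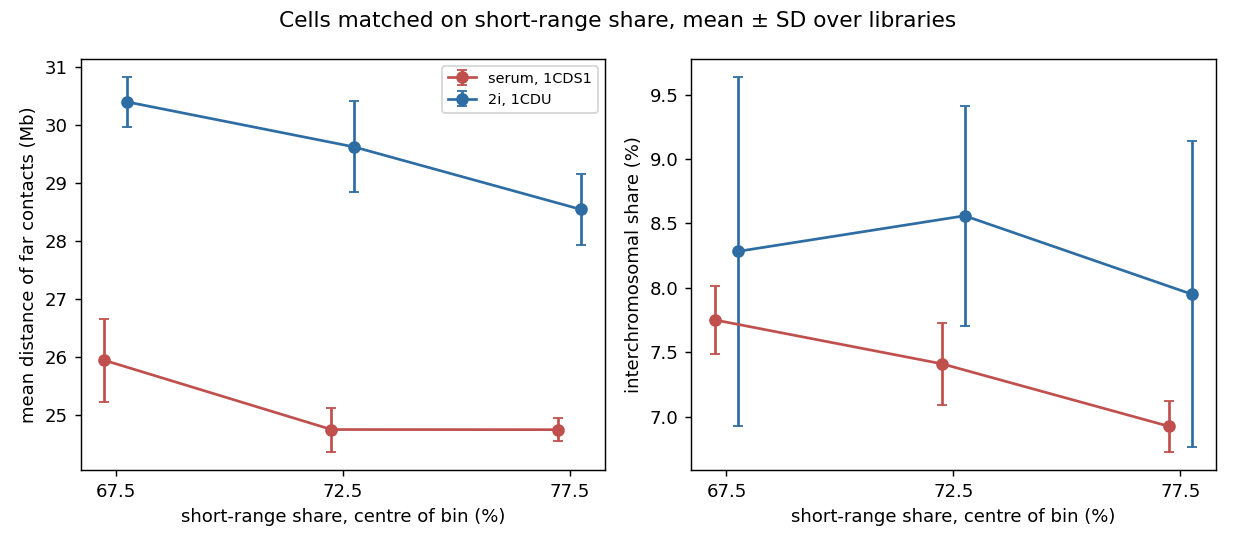
Mean distance of far contacts (Mb) and interchromosomal share (%) in cells matched on short-range share in bins of 5 points, mean and SD over 4 libraries per medium with at least 5 cells in the bin. The far distance is shorter in serum, with differences of -4.46, -4.88 and -3.80 Mb from the lowest to the highest bin, while the interchromosomal shares overlap.

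Early-S cells took a like share in both media, by the choice of the pair, so the G1 and late-S/G2 shares are near mirror images and not separate results. Early-S cells were 61.9% of serum cells and 65.1% of 2i cells. G1 cells were 81 of 428 in serum (18.9%, exact Clopper-Pearson 95% interval 15.3 to 22.96) and 116 of 401 in 2i (28.9%, 24.5 to 33.6). Late-S/G2 cells were 82 in serum (19.2%, 15.5 to 23.2) and 24 in 2i (5.99%, 3.87 to 8.77). No cell of either medium was placed in post-M or pre-M, which allows a share of up to 0.701% in serum and 0.748% in 2i for each. These intervals and limits cover counting error only.

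By library, G1 took 27.3% in diploid 1_6, 20.3% in 2_14, 25.3% in 3, 13.9% in 4 and 10.4% in 5_10 in serum, and 25.97% in diploid 11, 29.5% in 12, 29.1% in 13 and 30.9% in 2_14 in 2i. The low serum values were those of diploid 4 and 5_10, and diploid 1_6 with its 11 cells lay among the 2i libraries. The means were 19.4% ± 7.22 (SD, n = 5) and 28.9% ± 2.07 (n = 4), a difference of -9.42 points (exact p = 0.0714, adjusted p = 0.0714).

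Late-S/G2 took 9.09%, 15.6%, 15.6%, 21.2% and 31.2% in the serum libraries in the same order, and 12.99%, 2.46%, 6.72% and 2.94% in the 2i libraries. Only diploid 1_6 in serum and diploid 11 in 2i crossed. The means were 18.5% ± 8.29 (n = 5) and 6.28% ± 4.86 (n = 4), a difference of 12.3 points (exact p = 0.0571, adjusted p = 0.0714, the smallest p possible being 0.0143). Neither passed, and with batches as units both had an exact adjusted p of 0.0397. Within diploid 2_14 late-S/G2 cells were 10 of 64 in serum and 2 of 68 in 2i. These shares varied widely within a medium. Under the other condition names 1CDS2 in serum and NoSort in 2i, late-S/G2 took 55.7% and 43.3% of passing cells. G1 took 15.1% and 12.9% of them, the reverse of the G1 order in the pair.

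**Figure D5:**
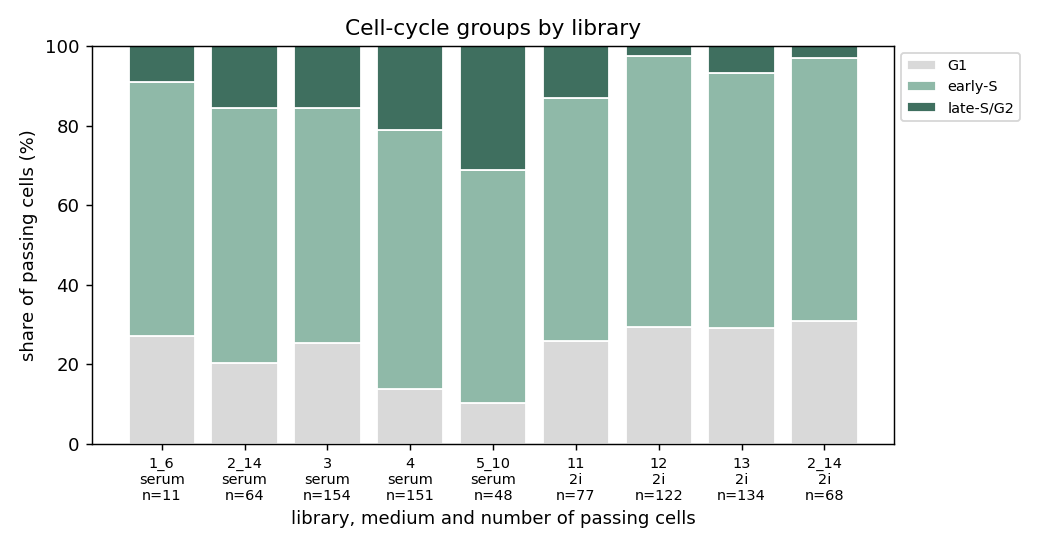
Share of passing cells (%) in G1, early S and late-S/G2 for each library and medium, with the number of cells under each bar. Early S fills between 58.3% and 68.0% of every bar, while late-S/G2 fills 18.5% on average in serum and 6.28% in 2i.

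The comparisons of folding above were made within a group or bin, and taking all cells together gave a far-distance difference of like size. Over all cells whatever their group, far contacts averaged 24.3 Mb ± 0.369 in serum (SD, n = 5) and 29.1 Mb ± 0.429 in 2i (n = 4), a difference of -4.74 Mb (exact p = 0.0143, the smallest possible, adjusted p = 0.1). The difference in short-range share, which had opposite signs in G1 and early S, was 3.40 points over all cells (exact p = 0.0286, adjusted p = 0.1).

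The spread between cells within a library differed by feature. In G1 the SD of the short-range share over cells was 6.33 points in serum libraries (5.76 to 6.78) and 4.27 in 2i libraries (3.03 to 6.30), and that of the mitotic-band share 4.10 (3.36 to 4.71) and 2.12 (1.41 to 3.41). The libraries of the media overlapped in both. In early S the SD of the short-range share was 4.04 points in serum and 4.31 in 2i, the reverse order. Averaged over G1 and early S neither difference in SD passed (0.897 points with exact p = 0.2, 1.04 points with exact p = 0.1). The SD of far distance was 2.36 Mb (2.07 to 2.86) in serum and 3.26 Mb (2.99 to 3.49) in 2i in early S, without overlap, and 4.19 Mb (3.90 to 4.54) and 4.64 Mb (4.41 to 5.27) in G1, with overlap. This gave a difference of -0.680 Mb averaged over G1 and early S (exact p = 0.05, adjusted p = 0.175 over 7 features).

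The scale of the authors' scores is not defined in the sources used here, and whether it is shared by the serum and 2i tables is not known, so levels are given side by side with no test between media. The replication score, read from its name as a measure of DNA copy gained in S phase, averaged 1.04 in serum and 1.10 in 2i in G1, and 1.20 and 1.17 in early S. It rose from G1 to early S by 0.153 ± 0.00794 in serum (3 of 3 libraries) and by 0.0737 ± 0.00653 in 2i (4 of 4). In cells matched on short-range share the serum and 2i scores were 1.13 and 1.13 between 65% and 70%, 1.21 and 1.21 between 70% and 75%, and 1.27 and 1.31 between 75% and 80%. Early-S cells with more short-range contacts had higher replication scores in each of these libraries, with rho from 0.474 to 0.812 in serum and from 0.561 to 0.765 in 2i.

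Compartment scores describe how strongly active and inactive segments keep to their own kind. The score within chromosomes was 0.0986 ± 0.00466 in serum and 0.354 ± 0.00951 in 2i in G1, and 0.128 and 0.441 in early S. It rose in 3 of 3 serum libraries (by 0.0295) and in 4 of 4 2i libraries (by 0.0874). The score between chromosomes was 0.0175 and 0.230 in G1 and 0.0332 and 0.322 in early S, and it too rose in every library. Both levels are far apart between the tables, and since a common scale is not known, the levels of the 2 media cannot be ranked.

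Insulation scores, which describe how sharply neighbouring domains are set apart, were 2.33 in serum and 2.47 in 2i in G1 and 2.33 and 2.49 in early S. From G1 to early S insulation rose in 2 of 3 serum libraries (mean -0.00235) and in 4 of 4 2i libraries (mean 0.0246). The alignment score between chromosomes fell in all libraries, from 0.369 to 0.327 on average in serum and from 0.256 to 0.203 in 2i. In early-S cells it was lower where far contacts were longer, with rho from -0.745 to -0.502 in serum libraries and from -0.867 to -0.721 in 2i libraries. The largest coverage deviation of a chromosome was 0.309 and 0.357 in G1, and 0.276 and 0.330 in early S, in serum and 2i.

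Other cells of the same line and media show how much the distance varied within a medium. In early S, far contacts averaged 26.3 Mb ± 0.611 (SD, 25.5 to 26.8, n = 4) under 1CDS2 in serum and 27.4 Mb ± 0.564 (26.9 to 28.2, n = 4) under NoSort in 2i, both between the values of 1CDS1 and 1CDU. In G1 they averaged 24.3 Mb ± 0.634 under 1CDS2 and 29.6 Mb ± 1.55 under NoSort. In G1 and early S the 2i values thus lay above the serum values of the same group. The early-S gap between 1CDS1 and 1CDU was wider than that between 1CDS2 and NoSort. In late-S/G2 far contacts averaged 23.2 Mb ± 0.389 (n = 4) under 1CDS2 and 24.8 Mb ± 0.731 (23.7 to 25.4, n = 4) under NoSort. The NoSort libraries there overlapped the serum libraries of 1CDS1, at 24.3 to 24.8 Mb. The early-S short-range share was 70.9% under 1CDS2 and 72.8% under NoSort, the reverse of the order between 1CDS1 and 1CDU. In G1 it was 53.5% and 56.7%, so the rises to early S lay closer together than in the pair. The early-S interchromosomal share was 7.87% under 1CDS2 and 5.87% under NoSort, also the reverse order. In G1 the interchromosomal share was nearly equal, at 5.66% and 5.62%. The early-S duplicated share was 3.09% under 1CDS2 and 5.40% under NoSort, again the reverse of the order in the pair. These conditions had fewer early-S cells (23.9% and 40.5%) and were not tested against the pair.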

How the data were processed

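Deposited tables of the diploid line, 1 for serum and 1 for 2i, list Hi-C features per cell. The number of contacts is a count, per the file headers. Deposited shares are fractions per cell, printed here in percent, and what each is a fraction of, and the limits of the bands, is not given in the sources used here. Each deposited score has an undefined scale. Far distance is deposited in bp and shown in Mb. Group, condition, batch and quality flag are the authors'. Reads were aligned with Bowtie2 to mm9, per the submitters' processing notes.

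Batches were joined to samples through the cell list. Passing cells of the pair were averaged per library, medium and cell-cycle group (at least 10 cells), and compared by exact two-sided permutation of libraries with Benjamini-Hochberg adjustment. Depth ran from a median of 121909 contacts per cell in 2i to 227034 in serum, and the number of libraries limits precision. No gene could be named, so by rule every feature on a common scale is reported and every score given side by side. The members, features and lists were chosen with earlier results of these data known. Alternatives changed the cell minimum, the averaging, depth, phase matching and libraries. Batches as units and early-S cells alone were added after seeing the data. The permutation was tested on simulated data. The scripts ran under Python 3.11.15 (numpy 2.4.6, scipy 1.17.1, pandas 2.3.3), and plots were drawn with matplotlib 3.10.9.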

Additional observations from a re-analysis of the deposited data

Results flagged for a closer look

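Dixon's test was applied to 60 sets of at least 4 and at most 5 library values. Of these, 3 held a library whose gap to its nearest neighbour took up most of the range of the set. Chance marks about 1 in 20 such sets, which is the share found here. In G1 cells of 2i, the share without digestion was 25.7% in diploid 11 and between 38.5% and 40.0% in the other libraries. In early-S cells of serum, the interchromosomal share was 7.77% in diploid 2_14 and between 7.19% and 7.28% in the others. In late-S/G2 cells of serum, far contacts averaged 24.8 Mb in diploid 5_10 and between 24.3 and 24.4 Mb in the others.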

How the results depend on the processing

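Of 544 alternatives tried over 38 results, 517 kept the direction, and 27 results kept it under every alternative run. Of the 516 with a p, 412 could not give one under 0.05, so the side of the threshold says nothing about stability there. The main tests of the far-distance and contact differences averaged over G1 and early S had this limit too. With a minimum of 5 cells, cells whatever their phase, and the depth window, lower p-values were possible. Far distance there had an exact p of 0.0143, 0.0143 and 0.0286, and contacts of 0.0714, 0.114 and 0.171. With batches as units both had 0.0286. None of these had an adjusted p under 0.05. The average of the short-range difference turned from -0.735 to 2.78 points, and that of the mitotic band from 1.09 to -0.204, with a minimum of 20 cells or with early-S cells alone, because only early S then enters. They were 3.40 and -0.345 with cells whatever their phase, and 2.56 and -0.112 in the depth window, where the duplicated-share difference was -0.0157, averaged and in early S. Differences in spread turned to -0.263 (short-range) and 4.53 (contacts, coefficient of variation in points) with 20 cells, and to -0.349, 2.64 and -0.0783 (duplicated) in the depth window. The contacts spread was 0.769 with a minimum of 5 cells, 0.206 without the library with both media, and between -8.64 and 1.92 when any 1 library was left out, turning without diploid 12, 2_14 or 3. The difference in the G1 to early-S change of the share without digestion was 0.287 with 5 cells, 0.957 without the library with both media, 0.670 with all cells pooled, and between -2.04 and 0.957 with 1 library left out. Pooled cells gave changes of -7959 for contacts and 0.163 for the duplicated share. The far-distance change lay between -0.977 and 0.125 Mb, turning without diploid 11, and the passing share between -3.09 and 9.41 points, turning without diploid 1_6. With batches as units, the differences in G1 share (-9.42 points) and late-S/G2 share (12.3 points) passed. Apart from the case named, the cause was not tested. No paired analysis was possible because only diploid 2_14 holds both media, so fewer than 2 library numbers are shared.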
